A study of Mus musculus with 32 samples.

Results

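Potassium channel genes were taken as all genes whose symbol is Kcn followed by lower-case letters and a number. The rule found 92 genes among the 55289 named genes in each of 5 organ tables, and it used no measured value. They comprise 40 alpha subunits of voltage-gated channels, 15 auxiliary subunits, 15 inward rectifiers, 14 two-pore-domain channels and 8 channels activated by calcium or sodium. The genes were read in degradome sequencing of Ftsj1_DF and WT mice, in which polyadenylated RNA lacking a cap is ligated at its exposed 5′ end, so a value counts decay intermediates and not intact transcripts. All mice were male and 4 months old, and each library started from 5 µg of total RNA. Brain, heart, kidney and liver came from the same 6 mice, 3 Ftsj1_DF and 3 WT, and spleen came from 8 other mice, 4 Ftsj1_DF and 4 WT. Some of the mice were brothers, and all libraries carry the same batch label. The labels do not spell out the allele behind Ftsj1_DF. Each organ was taken whole, and only uncapped RNA was read. For a lower value, fewer cells of a type, less RNA per cell and less decay per transcript cannot be told apart.

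Potassium channels let potassium ions leave or enter a cell and thereby set its resting voltage and end its electrical spikes. Voltage-gated alpha subunits open on depolarisation, inward rectifiers and two-pore-domain channels carry resting currents, and channels activated by calcium or sodium couple the current to those ions. Neurons use many of these genes at once, cardiac muscle relies on a smaller set to end the action potential, and kidney tubules use a few to move potassium across the epithelium. Ftsj1 encodes a methyltransferase that modifies the ribose of certain tRNAs.

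The authors' deposited tables hold 1 mean over all libraries of an organ and 1 comparison between the genotypes for each gene, and values of single libraries are not analysed here. The sum of the means per table, which stands for depth, lay between 48536401 and 73405489 normalised counts. The organ names were checked against marker genes. The 10 neuron markers summed to 3329 parts per 1000000 (ppm) of the table's sum in the table named for liver and to 20.3 ppm in the table named for brain. The 10 hepatocyte markers summed to 2741 ppm in the table named for liver and to 244893 ppm in the table named for brain. The table named for liver therefore carries the neural signal and is called liver-named (neuronal) below, and the other is called brain-named (hepatocyte). Heart, kidney and spleen matched their names (cardiomyocyte markers 72163 ppm in heart, proximal tubule markers 9478 ppm in kidney, B and T cell markers 738 ppm in spleen), but 8 pancreatic acinar markers summed to 144280 ppm in spleen. Ftsj1 itself had a negative log2 fold change in every table, between -3.38 ± 0.59 (SE) in the authors' deposited table named for liver and -1.56 ± 0.61 in that of kidney. Its adjusted p missed 0.05 in heart (0.594) and kidney (0.202). The files do not state the direction of their fold changes, so they were read as Ftsj1_DF over WT from this gene.

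Most potassium channel genes had their highest level in the neural table. Levels are given in ppm of each table's summed means, which compares a gene with itself across tables, and they carry no correction for transcript length. The 92 genes together made up 3659 ppm in the liver-named table, 1615 in heart, 1099 in kidney, 701 in spleen and 193 in the brain-named table. A mean of 20 or more was reached by 82 of the 92 genes in the liver-named table, 64 in heart, 70 in kidney, 66 in spleen and 67 in the brain-named table. Of the 84 genes that reached this mean in their highest table, 60 were highest in the liver-named table, 11 in heart, 7 in kidney, 5 in spleen and 1 in the brain-named table. Among all 23352 genes that reached it, 38.7% were highest in the liver-named table, 9.90% in heart, 23.8% in kidney, 19.7% in spleen and 8.01% in the brain-named table. The tables were normalised separately, so these counts are a description with no test. Across 4 ways of scaling the tables, 69 of the 84 genes kept the same highest table, 53 of them in the liver-named table, 9 in heart, 3 in kidney, 3 in spleen and 1 in the brain-named table. Under the scaling by the sum, genes with a mean of 20 or more in all 5 tables were compared with their own 5-table average (log2). The median gene sat at -0.78 in the brain-named table, -0.42 in heart and 0.43 in kidney. It sat at 0.50 in the liver-named table and -0.14 in spleen, and the levels below are to be read against those shifts.

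**Figure D1:**
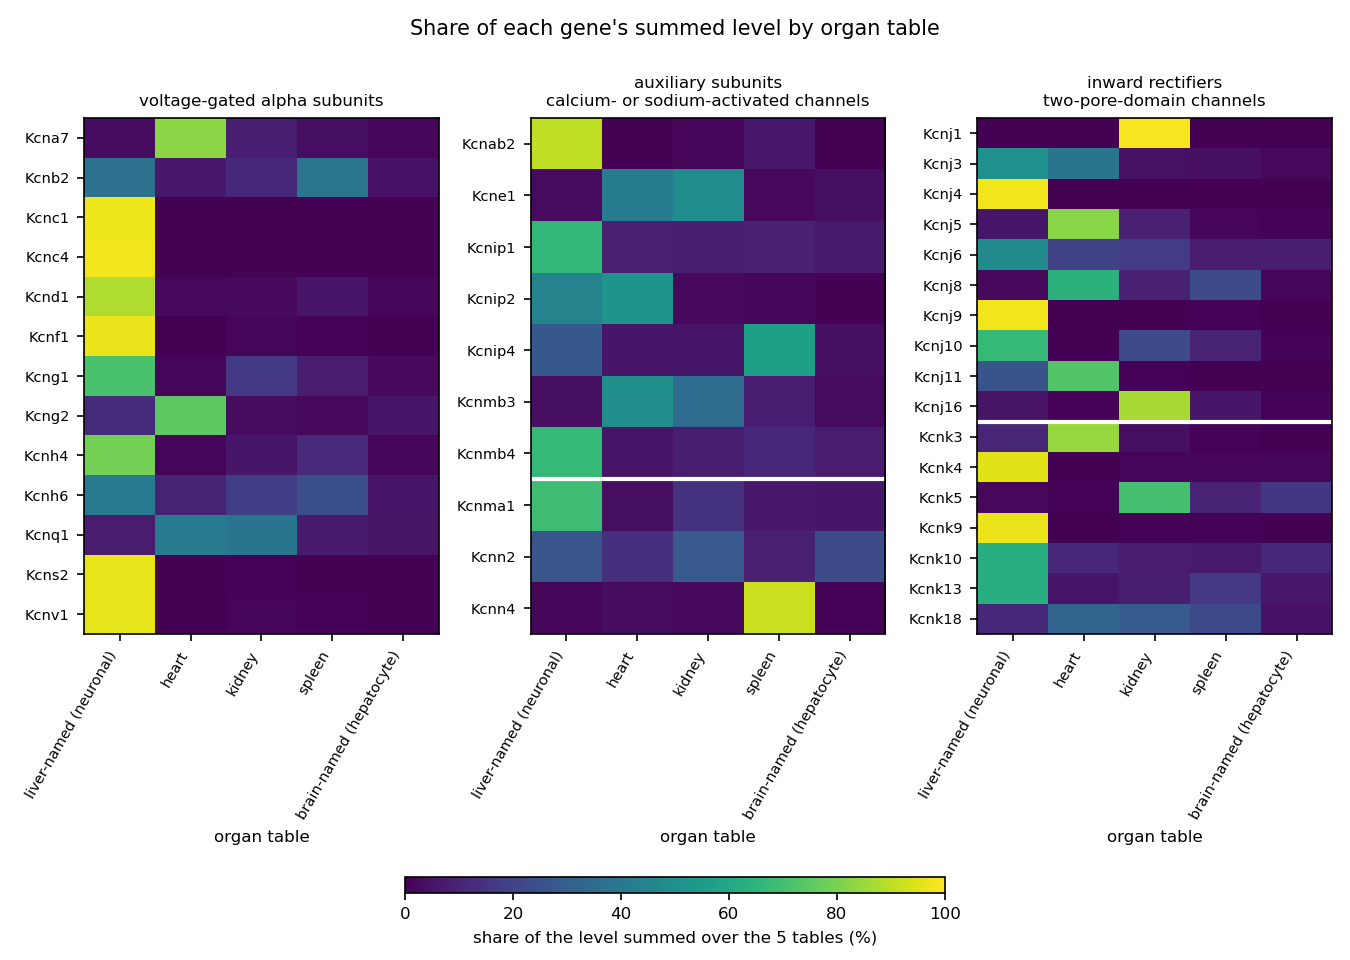
Each row is one of 40 potassium channel genes named in the text, each column an organ table, and the colour gives the percentage of the gene's level, summed over the 5 tables, that lies in that table. Genes listed at 0 in all tables are left out. Of these rows 22 are brightest in the liver-named (neuronal) column, while Kcnj1 stands at 98.7% in kidney, Kcnk3 at 84.4% in heart and Kcnn4 at 92.2% in spleen.

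**Figure D2:**
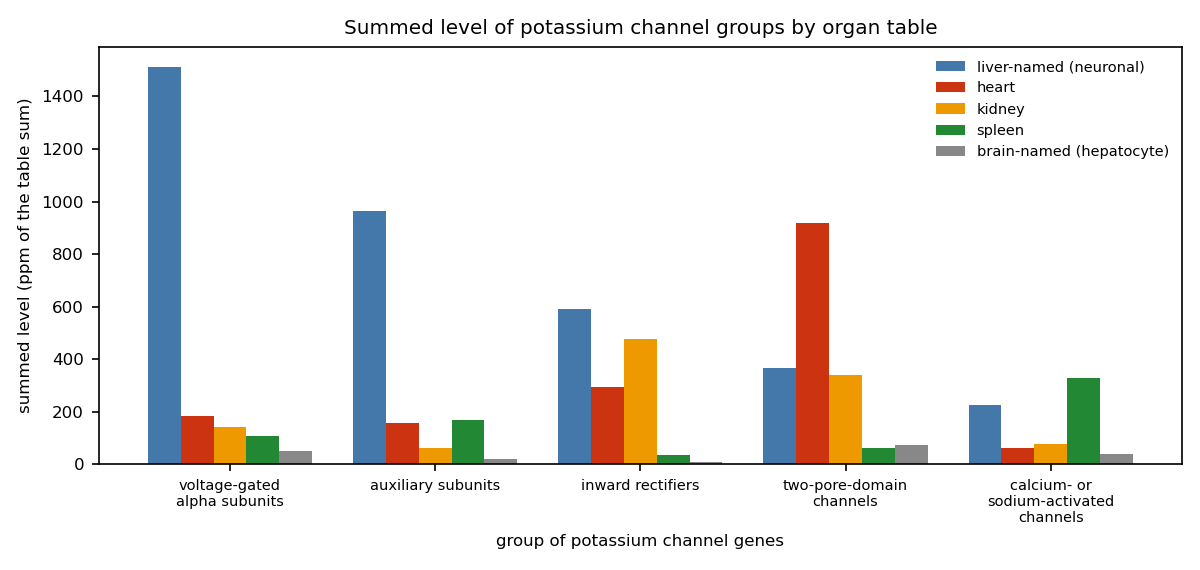
Bars give the summed level of each group of genes in each organ table, in ppm of that table's sum and starting at 0. Voltage-gated alpha subunits and auxiliary subunits are tallest in the liver-named (neuronal) table, two-pore-domain channels in heart, and channels activated by calcium or sodium in spleen.

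The groups differed in how far the neural table led. Voltage-gated alpha subunits summed to 1512 ppm in the liver-named table, against 183 in heart and 143 in kidney, and 33 of the 40 genes were highest in the liver-named table. Kcnc4 and Kcnc1, which carry fast delayed-rectifier or fast-inactivating currents that let neurons fire at high rates, had 97.8% and 97.3% of their summed level there. Kcnc4 stood at 192 ppm in the liver-named table, 1.33 in heart, 0.836 in kidney, 1.09 in spleen and 1.09 in the brain-named table. The modulatory alpha subunits Kcnf1, Kcns2 and Kcnv1, which form no channel alone and alter other voltage-gated channels, had 97.1%, 96.9% and 96.4% of their level in the liver-named table.

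3 voltage-gated genes were highest in heart. Kcna7 stood at 2.17 ppm in heart, 0.223 in kidney and 0.0897 in the liver-named table, and Kcng2, another modulatory subunit, stood at 24.8 in heart, 1.07 in kidney and 4.35 in the liver-named table. Kcnq1, the pore of the slow repolarising current of cardiac muscle and of several epithelia, was shared between heart (18.5 ppm) and kidney (17.4 ppm). The log2 difference between these 2 levels was 0.09 with an approximate standard error of 0.30, so their order is not resolved. That error and the ones beside other level differences below come from the deposited standard errors of the genotype fold changes and leave out the error of normalising the tables separately.

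Auxiliary subunits summed to 964 ppm in the liver-named table, 158 in heart, 60.2 in kidney and 169 in spleen. Kcnab2, a cytoplasmic beta subunit of voltage-gated channels, made up 57.7% of the tags of this group in the liver-named table, where it stood at 557 ppm, against 4.02 in heart and 8.36 in kidney. Kcnip2, the calcium-binding partner of the transient outward channels, made up 72.3% of the group's tags in heart. Its level was 114 ppm in heart, 98.3 in the liver-named table and 4.52 in kidney. The first of these levels exceeded the second by a log2 difference of only 0.21 ± 0.25, and their order turned round with the means as deposited. Kcne1, which joins Kcnq1 in the slow cardiac current, stood at 6.62 ppm in kidney, 5.78 in heart and 0.407 in the liver-named table, and kidney and heart differed by 0.19 ± 0.37 (log2), an order that changed with the scaling. Kcnip4, a relative of Kcnip2, made up 59.8% of the group's tags in spleen. It stood at 101 ppm in spleen and 48.7 in the liver-named table, a log2 difference of 1.05 ± 0.52, and at no more than 10.5 ppm in the other tables.

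Inward rectifiers had a strong neural, cardiac and renal share each, carried in part by different genes. Some of them had sizeable levels in both heart and the liver-named table. The group summed to 590 ppm in the liver-named table, 293 in heart and 478 in kidney. In the liver-named table, Kcnj4, a strong inward rectifier, stood at 244 ppm, against 1.75 in heart and 1.38 in kidney, and Kcnj9, a subunit of G protein-gated channels, stood at 155 ppm, against 0.401 in heart and 0.998 in kidney. In heart, Kcnj11, the pore subunit of the ATP-sensitive channel of cardiac muscle and pancreatic beta cells, stood at 168 ppm, against 2.04 in kidney and 59.7 in the liver-named table. Kcnj5, which forms the acetylcholine-gated channel of the atria together with Kcnj3, was at 18.9 ppm in heart, 2.11 in kidney and 1.30 in the liver-named table. Kcnj3 itself was at 17.0 ppm in heart and 22.0 in the liver-named table. Kcnj8, the pore of the ATP-sensitive channel of vascular smooth muscle and pericytes, had 64.3% of its level in heart and 22.7% in spleen.

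In kidney, Kcnj1, the potassium secretion channel of the thick ascending limb and collecting duct, stood at 386 ppm and made up 80.7% of the tags of the inward rectifiers. Its level in the other tables lay between 0.577 ppm in heart and 2.11 in spleen, so kidney led the next table by 182-fold. Without Kcnj1 the inward rectifiers summed to 92.5 ppm in kidney. Kcnj16, which joins Kcnj10 in the basolateral channel of the distal tubule, was at 54.2 ppm in kidney, 3.25 in the liver-named table and 0.619 in heart. Kcnj10, also the main potassium channel of astrocytes, was at 14.9 ppm in kidney and 45.4 in the liver-named table. The annotation places Kcnj1 wholly inside the gene model Gm31755, and how the counting treated the overlap is not given in the sources used here. Another 37 of the 92 genes overlap a gene without lying inside it. Among them are Kcnq1 (with Kcnq1ot1), Kcnab2 (with Nphp4), Kcnip4 and Kcnb2, and the same limit applies to them.

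Two-pore-domain channels were the one group with a higher sum in heart (920 ppm) than in the liver-named table (367) and kidney (340). Kcnk3, an acid-sensitive background channel, made up 98.2% of the group's tags in heart. Its level was 903 ppm in heart, 40.5 in kidney, 114 in the liver-named table, 9.67 in spleen and 3.07 in the brain-named table. Without Kcnk3 the group summed to 16.1 ppm in heart and to 254 in the liver-named table. Kcnk5, an alkaline-activated channel of the proximal tubule, stood at 258 ppm in kidney, 59.7 in the brain-named (hepatocyte) table, 4.20 in heart and 7.76 in the liver-named table. Kcnk9, the neural relative of Kcnk3, had 96.9% of its level in the liver-named table (50.5 ppm), and Kcnk4, a mechanically gated channel, had 95.4%.

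Channels activated by calcium or sodium summed to 225 ppm in the liver-named table, 61.7 in heart, 77.3 in kidney and 329 in spleen. Kcnn4, the intermediate-conductance calcium-activated channel of lymphocytes and red cells, made up 93.5% of the group's tags in spleen, at 308 ppm there, 11.6 in heart, 6.93 in kidney and 4.67 in the liver-named table. It is also expressed in pancreatic acinar cells, whose markers were high in the spleen table, and the part of those cells in this level was not tested. Kcnma1, the large-conductance calcium-activated channel, was at 86.2 ppm in the liver-named table, 18.5 in kidney and 4.60 in heart. Kcnn2 was at 12.1 ppm in kidney and 11.5 in the liver-named table, which differed by a log2 difference of only 0.07 ± 0.32, again in an order that changed with the scaling.

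6 of the 92 genes were listed at 0 in all 5 tables (6.52%), namely Kcna3, Kcne3, Kcne4, Kcnj13, Kcnj15 and Kcnmb1. Among protein-coding genes matched to the annotation by symbol, 6.86% were listed at 0. The share was 65.3% for the 825 protein-coding genes that lie wholly inside another gene and 5.47% for those that overlap none. Of the 4 potassium channel genes wholly inside another gene, Kcne4 (in Gm29536), Kcnj13 (in Gigyf2) and Kcnmb1 (in Kcnip1) were listed at 0, and Kcnj1 was not. The remaining genes at 0 do not lie inside another gene. Kcna3 overlaps none, and Kcne3 and Kcnj15 overlap another gene without lying wholly inside it. Among protein-coding genes that overlap another gene in that way, 2.87% were listed at 0.

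Promoter windows, from 250 bases before to 50 bases after an annotated start, were available for 67 of the 92 genes, in 92 windows (RefSeq, GRCm38.p6). They are shown for the gene with the largest share in the neural, heart and kidney tables (mean there 100 or more, and a window in the annotation) and for Kcnj8, which fell in kidney (below). Kcnk3, with a larger share in heart (84.4%) than Kcna7 (82.7%), has no window. Neither has Kcnb2, which also fell in kidney. Capitals mark CG dinucleotides. The build differs from that of the counts (GRCm39), so these coordinates belong to the windows only.
Kcnj4, chr15:79505192-79505491, minus strand: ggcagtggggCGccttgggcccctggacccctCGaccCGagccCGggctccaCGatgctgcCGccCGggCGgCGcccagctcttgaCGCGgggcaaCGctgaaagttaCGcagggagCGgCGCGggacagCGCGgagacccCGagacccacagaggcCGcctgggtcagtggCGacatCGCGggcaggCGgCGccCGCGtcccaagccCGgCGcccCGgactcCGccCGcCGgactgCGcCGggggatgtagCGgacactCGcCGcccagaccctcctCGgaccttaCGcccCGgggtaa
Kcna7, chr7:45405710-45406009, plus strand: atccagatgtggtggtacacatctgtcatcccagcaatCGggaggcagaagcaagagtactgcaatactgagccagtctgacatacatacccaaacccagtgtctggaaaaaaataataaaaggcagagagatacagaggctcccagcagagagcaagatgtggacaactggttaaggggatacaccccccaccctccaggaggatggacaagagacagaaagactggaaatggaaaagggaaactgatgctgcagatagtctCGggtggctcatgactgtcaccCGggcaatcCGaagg
Kcnj1, chr9:32393735-32394034, plus strand: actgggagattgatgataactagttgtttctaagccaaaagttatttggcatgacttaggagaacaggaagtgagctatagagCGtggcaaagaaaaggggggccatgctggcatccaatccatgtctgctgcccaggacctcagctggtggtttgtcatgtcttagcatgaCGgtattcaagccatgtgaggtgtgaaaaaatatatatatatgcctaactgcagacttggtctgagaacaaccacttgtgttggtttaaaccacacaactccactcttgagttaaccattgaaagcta
Kcnj8, chr6:142571565-142571864, minus strand: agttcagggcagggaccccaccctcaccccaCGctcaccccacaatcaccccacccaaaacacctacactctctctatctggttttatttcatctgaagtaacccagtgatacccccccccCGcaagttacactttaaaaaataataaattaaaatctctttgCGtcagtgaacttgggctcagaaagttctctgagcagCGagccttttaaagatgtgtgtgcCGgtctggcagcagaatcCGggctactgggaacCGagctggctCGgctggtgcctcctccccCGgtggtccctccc
The Kcnj4 window holds 41 CG dinucleotides, the Kcnj8 window 9, the Kcna7 window 4 and the Kcnj1 window 2. Over all windows of genes highest in the liver-named table (64 windows of 44 genes) the median was 12. It was 8 for heart (7 windows of 7 genes) and 6.5 for kidney (8 windows of 5 genes). Several of the kidney windows belong to Kcnj16, with 3, 8, 5 and 1 CG dinucleotides. Genes were placed by the scaling by the sum. Kcnj2 (18 CG dinucleotides) and Kcnt2 (12), counted here for kidney, were highest elsewhere under the other scalings. The median over all 32851 windows in the annotation was 7. The letters GGGCGG, searched on both strands, occurred in 54.7% of the windows of genes highest in the liver-named table, in 28.6% for heart, in 37.5% for kidney and in 35.7% of all windows, and the Kcnj4 window holds them 4 times. TATAAA occurred in 5.43% of the 92 windows and in 13.6% of all. These are descriptions of sequence with no test.

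Between genotypes, potassium channel genes passed the test in kidney alone. The authors' deposited table of each organ gives a DESeq2 Wald test adjusted over all its tested genes, and a false discovery rate of 5% was used. In kidney 2 of 76 tested genes passed (2.63%), beside 2.07% of all 19630 tested genes, a share near the background. Both fell, and 0.866% of all tested genes fell. No potassium channel gene passed in the authors' deposited tables of the other organs, where 83 were tested in the liver-named table (background 0.203%), 73 in heart (1.19%), 80 in spleen (0.217%) and 67 in the brain-named table (0.414%). At an unadjusted p under 0.05 the same DESeq2 tables held 14 potassium channel genes in kidney (18.4%, background 11.9%), 9 in heart (12.3%, background 10.6%), 6 in the liver-named table (7.23%, background 10.4%), 0 in spleen (background 5.97%) and 1 in the brain-named table (1.49%, background 10.8%). The median log2 fold change of the tested potassium channel genes in kidney was -0.31, beside -0.01 over all tested genes, and 47 of the 76 values were negative (61.8%, beside 50.9% of all). In the other tables the medians lay between -0.10 and 0.02, beside -0.05 to 0.04 over all genes. By group, 1 of 34 tested voltage-gated alpha subunits and 1 of 12 tested inward rectifiers passed in kidney, and none of the 12 auxiliary subunits, 10 two-pore-domain channels and 8 channels activated by calcium or sodium. In heart the auxiliary subunits had a median of -0.62, with 9 of 11 values negative (48.9% of all tested genes were) and none past the test. In heart, two-pore-domain channels had a positive median of 0.44 (6 of 10 values positive), and inward rectifiers one of 0.24 (9 of 13). Voltage-gated alpha subunits had a negative median there, -0.17 (19 of 31 values negative). Channels activated by calcium or sodium had 0.10 (4 of 8 values negative), and again none passed the test. Neuron markers also had mostly negative values in both organs: 8 of the 9 tested were negative in kidney (median -0.45, summed level 43.2 ppm) and 8 of 9 in heart (median -0.56, summed level 43.8 ppm), none passed, and 1 of the 10 was at 0. Some marker sets of other tissues did likewise and others did not. In kidney, astrocyte markers were positive for 3 of 5 (median 0.95) and B and T cell markers for 3 of 5 tested (median 0.13). In heart, mural cell (pericyte and vascular smooth muscle) markers were positive for 4 of 8 (median 0.02). The sets named next were more uniformly negative, with no gene past the test. Hepatocyte markers were negative for 10 of 10 in kidney (median -0.46, summed level 4160 ppm, none at 0) and for 9 of 9 tested in heart (median -0.79, 603 ppm, none at 0). Cardiomyocyte markers were negative for 8 of 8 tested in kidney (median -0.60, 252 ppm, 1 of 10 at 0), and pancreatic acinar markers for 7 of 7 tested in heart (median -0.49, 195 ppm, 1 of 8 at 0). The part of any of these in the kidney and heart values was not tested.

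**Figure D3:**
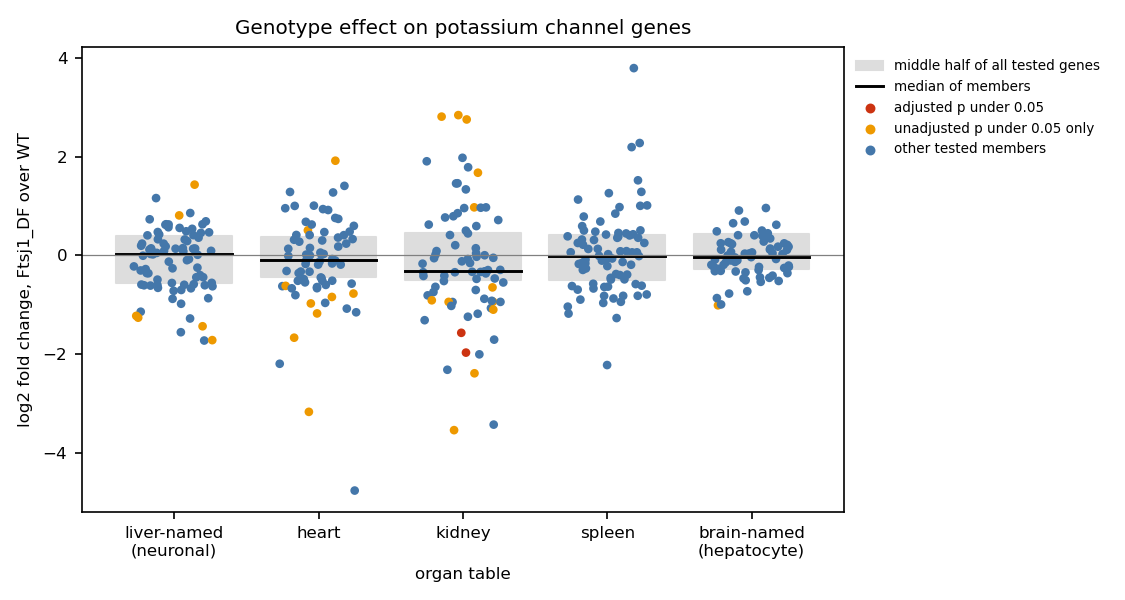
Points are the tested potassium channel genes in each organ table, placed by their deposited log2 fold change (Ftsj1_DF over WT). The black line is their median, the grey band spans the middle 50 percent of all tested genes, red points passed an adjusted p of 0.05 and orange points an unadjusted p of 0.05 only. The 2 red points are in kidney, where the black line lies at -0.31.

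Kcnb2 fell in kidney. Its product is a delayed-rectifier channel that opens on sustained depolarisation. Kcnb2 overlaps the gene models Gm25227, Gm51415, Gm51616 and Gm51617 in the annotation, and how the counting treated the overlap is not given. The authors' deposited table of kidney gives it a mean of 308 normalised counts and a log2 fold change of -1.97 ± 0.35 (SE, adjusted p = 1.85e-05). If the ratio is applied to that mean with equal group sizes, it implies 125 normalised counts in Ftsj1_DF kidneys and 490 in WT kidneys. In the other organs the authors' deposited table gives Kcnb2 -0.60 ± 0.47 in heart, 0.62 ± 0.37 in the liver-named table, 0.22 ± 0.90 in spleen and 0.41 ± 0.49 in the brain-named table, none past the test.

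Kcnj8 also fell in kidney. The authors' deposited table of kidney gives it a mean of 257 normalised counts and a log2 fold change of -1.57 ± 0.43 (adjusted p = 0.0194), which implies 130 normalised counts in Ftsj1_DF kidneys and 385 in WT kidneys. With the Wald statistic divided by its robust spread over all tested genes, the adjusted p was 0.109 and the call was lost, while Kcnb2 kept an adjusted p of 8.54e-04. In heart, its highest table, the authors' deposited table gives Kcnj8 0.68 ± 0.49, with 0.63 ± 0.42 in the liver-named table, -0.61 ± 0.67 in spleen and 0.91 ± 0.55 in the brain-named table. Its partner Abcc9, the regulatory subunit of the same ATP-sensitive channel, had 1.27 ± 0.85 in the authors' deposited table of kidney (adjusted p = 0.621). Of 8 mural cell markers, 6 had positive values there, with a median of 0.20, and none passed.

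Adrenal markers had negative values in the same kidney comparison. In the authors' deposited table of kidney 3 of 7 adrenal markers were tested, all 3 with negative log2 fold changes, of which Star, the cholesterol transporter of steroid-making cells, passed at -4.65 ± 1.03 (adjusted p = 0.00135). The other 4 markers have no p. The 7 markers summed to 60.6 ppm in kidney, and none was at 0. Whether adrenal tissue has a part in the lower Kcnb2 and Kcnj8 was not tested.

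The next genes in kidney did not pass. Kcnd1, an A-type channel that recovers quickly between spikes, had 2.81 ± 0.87 in the authors' deposited table of kidney (adjusted p = 0.0570), which implies 83.8 normalised counts in Ftsj1_DF and 12.0 in WT. In heart the authors' deposited table gives Kcnd1 -1.67 ± 0.63 (adjusted p = 0.206), which implies 21.0 in Ftsj1_DF and 66.6 in WT. Kcnk18, a calcineurin-regulated background channel of sensory neurons, had -3.54 ± 1.18 in the authors' deposited table of kidney (adjusted p = 0.0901). Both genes had kidney means under 100, and that of Kcnk18 was 90.6. The tubular genes Kcnj1 and Kcnj16, both led by kidney, did not pass, with 0.04 ± 0.20 for Kcnj1 and 0.44 ± 0.42 for Kcnj16 in the authors' deposited table of kidney. The 95% interval of the Kcnj1 value runs from -0.35 to 0.43. In the authors' deposited table of kidney Kcnk5 had -0.65 ± 0.27 (adjusted p = 0.256) and Kcnk13, a halothane-inhibited channel, -2.39 ± 0.81 (adjusted p = 0.101).

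**Figure D4:**
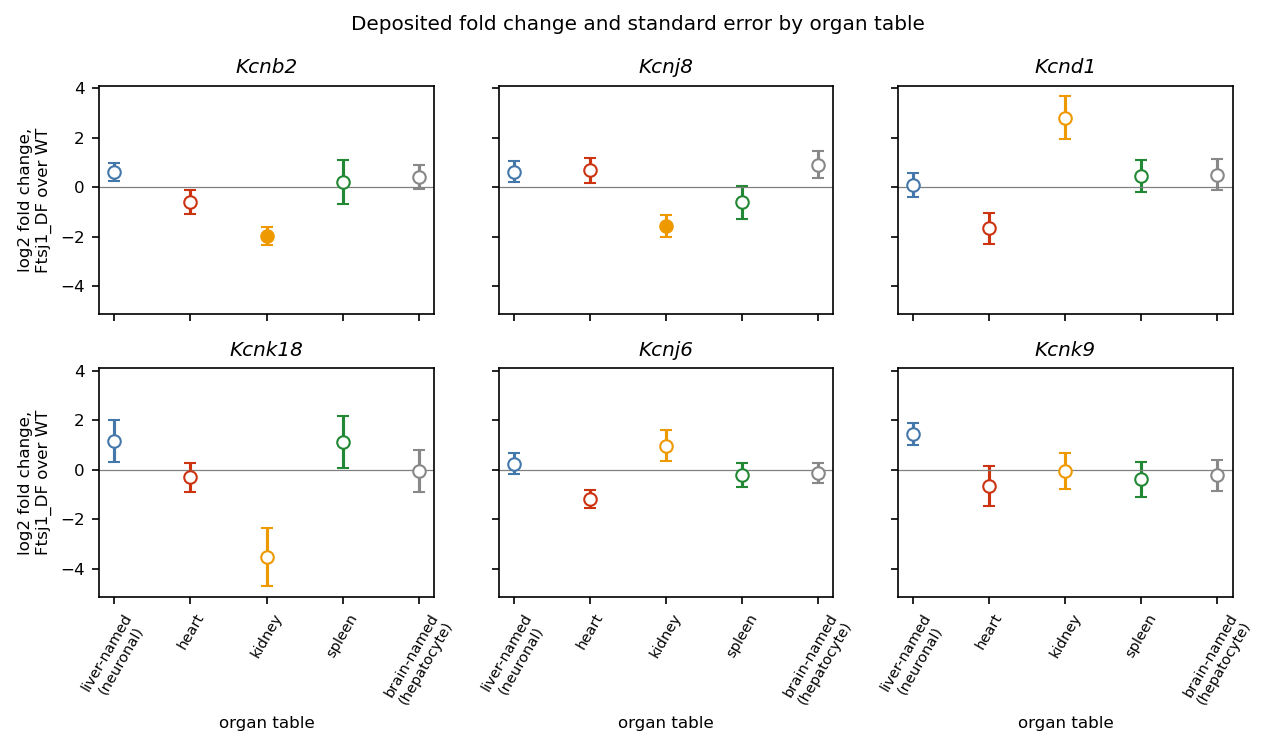
Each panel gives the deposited log2 fold change (Ftsj1_DF over WT) of 1 gene in the 5 organ tables, with bars of 1 standard error; filled points passed an adjusted p of 0.05. Kcnb2 and Kcnj8 are filled in kidney at -1.97 and -1.57, and Kcnd1 lies at 2.81 in kidney and -1.67 in heart.

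In heart the smallest p among potassium channel genes belonged to Kcnj6, a subunit of neuronal G protein-gated channels, at -1.18 ± 0.36 in the authors' deposited table of heart (adjusted p = 0.0747). That implies 149 normalised counts in Ftsj1_DF and 336 in WT hearts. Kcnmb3, an auxiliary subunit of the large-conductance calcium-activated channel, had -0.84 ± 0.31 in the authors' deposited table of heart (adjusted p = 0.194) and -0.91 ± 0.41 in that of kidney (adjusted p = 0.322). Kcnmb3 overlaps Pik3ca in the annotation. Kcnh6, a channel of the ether-a-go-go-related family, had -3.17 ± 1.27 in the authors' deposited table of heart (adjusted p = 0.264) at a mean of only 19.7 normalised counts. The genes that led the cardiac levels did not pass, with 0.41 ± 0.23 for Kcnk3, 0.03 ± 0.28 for Kcnj11 and 0.02 ± 0.34 for Kcnip2 in the authors' deposited table of heart.

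In the neural table, Kcnk9 had the smallest p, at 1.43 ± 0.44 in the authors' deposited table named for liver (adjusted p = 0.133), which implies 5022 normalised counts in Ftsj1_DF and 1861 in WT. Kcnmb4, the neuronal auxiliary subunit of the large-conductance calcium-activated channel, had -1.44 ± 0.46 in the same authors' deposited table (adjusted p = 0.154). Kcnq1 had -1.72 ± 0.69 (adjusted p = 0.317) and Kcnh4 -1.23 ± 0.52 (adjusted p = 0.348) there. The genes with the largest neural shares had 0.14 ± 0.44 for Kcnj4, 0.41 ± 0.44 for Kcnc4 and 0.14 ± 0.35 for Kcnc1 in the authors' deposited table named for liver. None of these neural values passed the test.

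In spleen the smallest adjusted p was 0.869, for Kcnip2 at 0.85 ± 0.45 in the authors' deposited table of spleen, and in the brain-named table it was 0.457, for Kcnk10, a mechanically gated background channel, at -1.01 ± 0.51. Kcnn4, at 0.44 ± 0.63 in the authors' deposited table of spleen, did not pass in its highest table. Kcng1 in kidney (-1.66 ± 1.26) and Kcnh4 in spleen (3.39 ± 1.15) have a mean of at least 20 but no p in the authors' deposited tables.

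A call in kidney alone does not show that kidney differs from another organ, so the difference of 2 deposited log2 fold changes was tested with a z-test for every gene tested in both tables, adjusted by Benjamini-Hochberg over all those genes. The Kcnb2 fold change in kidney was lower than that in the liver-named table, by a log2 difference of -2.59 ± 0.51 (adjusted p = 5.68e-04), and lower than that in the brain-named table, by -2.38 ± 0.60 (adjusted p = 0.0137). Against heart the Kcnb2 difference was -1.37 ± 0.59 (adjusted p = 0.375) and did not pass. Kcnj8 differed between kidney and the liver-named table by -2.20 ± 0.60 (adjusted p = 0.0385) and between kidney and the brain-named table by -2.48 ± 0.70 (adjusted p = 0.0355). Between kidney and heart the Kcnj8 difference of -2.25 ± 0.65 had an adjusted p of 0.0680. Kcnd1 differed between kidney and heart by 4.48 ± 1.07 (adjusted p = 0.0111), although it passed in neither organ on its own. Potassium channel genes with a difference past the threshold were thus 2 of 75 for kidney and the liver-named table (background 0.791%), 2 of 64 for kidney and the brain-named table (background 1.3%) and 1 of 70 for kidney and heart (background 0.638%). In the other 7 pairs of tables none passed. Between 2 and 9 potassium channel genes per pair had an unadjusted z-test p under 0.05 there, which is 2.53% to 12.5% of those tested, beside 5.13% to 10.2% of all genes. The highest of these shares, for heart and the liver-named table, stood beside 7.74% of all genes. The background of these pairs was 0.411% for kidney and spleen, 0.452% for heart and the brain-named table, 0.165% for heart and the liver-named table, 0.117% for heart and spleen, 0.0799% for the liver-named table and spleen, 0.0534% for spleen and the brain-named table and 0% for the liver-named and brain-named tables. Standard errors were also multiplied by each table's robust spread of the Wald statistic. That spread was 0.951 in spleen, which made its errors smaller, and 1.14 to 1.21 in the other tables. The z-test difference of Kcnb2 between kidney and the liver-named table alone then remained past the threshold, at an adjusted p of 0.0243. The test treats tables as independent although 4 organs share mice.

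Genes that work with the channels, and the channels of other cations, were set beside them. None of 16 channel partners passed in any of the authors' deposited tables, of which 12 were tested in kidney, 12 in heart, 15 in the liver-named table, 13 in spleen and 11 in the brain-named table. An unadjusted DESeq2 p under 0.05 was held by 3 in kidney (background 11.9%), 2 in heart (10.6%), 1 in the liver-named table (10.4%), 0 in spleen (5.97%) and 1 in the brain-named table (10.8%). The partner closest to the threshold was Dpp10, which assists the transient outward channels, at -0.77 ± 0.24 in the authors' deposited table of kidney (adjusted p = 0.0547). Of 31 sodium and calcium channel genes, Scn9a, the sodium channel of peripheral sensory and sympathetic neurons, fell in heart at -1.83 ± 0.39 (adjusted p = 0.00148) and in kidney at -1.42 ± 0.37 (adjusted p = 0.0135) in the authors' deposited tables. Its means and ratios imply 531 normalised counts in Ftsj1_DF and 1895 in WT hearts, and 1124 in Ftsj1_DF and 3017 in WT kidneys. That is 1 of 30 tested in heart (background 1.19%) and 1 of 28 tested in kidney (background 2.07%), so a single gene in each. The other 30 sodium and calcium channel genes did not pass in any of the 5 tables.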

How the data were processed

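Degradome libraries of 5 organs from Ftsj1_DF and WT mice were counted per gene with featureCounts (Subread 2.0.3) on GRCm39 and compared with DESeq2, per the submitters' processing notes, which give no further version. The deposited tables hold, per the file headers, a mean normalised count (a signal, the authors' mean over all libraries of an organ), a log2 fold change with its standard error on the log2 scale, a Wald score, a p-value and an adjusted p-value. No column holds a single library (0 such columns), so no test was refitted and the authors' model and counting strand are not given in the sources used here.

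Members were found by symbol. Levels are means per 1000000 (ppm) of each table's sum, with scaling by the median ratio, means as deposited and the sum without the 100 highest genes as alternatives. Genotype calls use the authors' adjusted p at 5%, with 1%, 10%, other adjustment sets, a minimum log2 change of 1 and a statistic divided by its robust spread as alternatives. Differences between tables use a z-test with Benjamini-Hochberg adjustment, tested on simulated data. Errors of level differences are the root of the summed squared standard errors of both tables, divided by 2. Genes named are those past the threshold, the 4 smallest p per table, up to 8 genes per table with a mean of at least 100 and the largest share, the leading gene of each group in the neural, heart and kidney tables, and genes with no p at a mean of 20 or more, with other members named for their known roles after their values were seen. The members and lists were chosen with earlier results of these data known. Replicates are separate mice, some of them brothers. RefSeq tables (GRCm38.p6) gave promoter sequences and gene overlaps. The planned search of member proteins was not run. Results for some members are not reported here. Values were computed in Python 3.11.15 (pandas 2.3.3, numpy 2.4.6, scipy 1.17.1) and drawn with matplotlib 3.10.9.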

Additional observations from a re-analysis of the deposited data

Results flagged for a closer look

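5 genotype effects differed between organs by the z-test of the difference, adjusted over all genes of the pair of tables. Kcnb2 differed by -2.38 (log2) between kidney and the brain-named table and by -2.59 between kidney and the liver-named table, with a negative genotype effect in kidney and a positive value in both others. Kcnj8 differed by -2.48 between kidney and the brain-named table and by -2.20 between kidney and the liver-named table, again negative in kidney and positive in the others. Kcnd1 differed by 4.48 between kidney and heart, with values of 2.81 in kidney and -1.67 in heart. Its means of 47.9 normalised counts in kidney and 43.8 in heart were low. In the same kidney comparison all 3 tested adrenal markers had negative values and 1 passed the test, and their part in these differences was not tested.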

How the results depend on the processing

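Of 226 recomputed values under alternatives, 200 kept their direction and side of the threshold or stayed within 1.5 times of the reported count. None reversed. Many of these values could not have changed, so the tally does not measure robustness. A gene or table without a call as reported cannot gain a call at 1% or with an added minimum log2 change. Medians in the brain-named table could not move because all its tested potassium channel genes already met the minimum mean. The 15 genes whose highest table changed with the scaling entered only as counts per table. At a false discovery rate of 10% the calls were 4 of 76 in kidney, beside 606 of all 19630 tested genes, and 1 of 73 in heart, beside 381 of 19847. In kidney 1 remained at 1%, beside 184 of all genes, and 1 with the Wald statistic divided by its robust spread, beside 169, where 407 of all genes passed as reported. Genes highest in the brain-named table numbered 6 with median-ratio scaling, 2 with means as deposited, 3 without the 100 highest genes and 0 at a mean of at least 100. In kidney they numbered 3, 4 and 3 under the first 3 of these, in heart 18 with median-ratio scaling, and in spleen 3 with means as deposited and 8 without the 100 highest genes. With standard errors enlarged by the robust spread, differences past the threshold numbered 0 for kidney and the brain-named table (40 over all genes, against 216 as reported), 0 for kidney and heart (23, against 114) and 1 for kidney and the liver-named table (34, against 147). No paired analysis was possible because the tables hold no column per library. Leaving out single mice was not possible for the same reason. Kcnd1, Kcnk18 and Kcnk13 had kidney means under 100 and standard errors between 0.81 and 1.18, which limits what could be detected for them.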
